A study of Mus musculus with 35 samples.

Results

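XEN cells, a line of extra-embryonic endoderm, were compared with embryonic stem (ES) cells after 168 h of GATA6 induction, to ask which expression levels of the reference line the induced cells had not reached and which they had gone past. The comparison rests on 5 libraries, 3 of induced cells and 2 of XEN cells. It covers the 12653 autosomal genes, of 44853 in the table, whose mean was at least 1 TPM (transcript copies scaled to a fixed library total, a level already divided by transcript length) in either group. Of these genes, 11167 reached 1 TPM in both groups, 1037 passed through the induced cells alone and 449 through XEN cells alone.

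The induced cells came from a KH2 ES line of C57BL/6 x 129/Sv background. It carries a cassette that expresses Gata6 under doxycycline (Dox), and it was grown with Dox at 1 µg/mL in medium with LIF. The XEN cells were a wild-type line, X10, of CD1 genotype, grown without LIF and without Dox. Both were cultured on mouse embryonic fibroblast feeders, which were left to adhere to dishes for 20 min before lysis to deplete them. Cell line, genotype, LIF and Dox therefore all differ between the groups and cannot be told apart, and each group is a single line whose libraries are the independent replicates of the study's methods. Library preparation selected polyadenylated RNA and kept strand.

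GATA6 is a zinc finger transcription factor that sets the primitive endoderm apart from the epiblast in the blastocyst. Primitive endoderm gives rise to the parietal endoderm, which migrates along the trophoblast and lays down a thick basement membrane, and to the visceral endoderm, a polarised epithelium that wraps the embryo, takes up maternal proteins by endocytosis and secretes apolipoproteins. XEN cells self-renew in culture and are usually nearer in expression to parietal than to visceral endoderm.

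GATA factors bind the letters GATA, most often read as AGATAA or TGATAA. These were searched on both strands in promoters taken from RefSeq (GRCm38.p6, 250 bases before to 50 bases after a gene's start). Among the genes with the largest differences, 21 have a promoter there and 3 of these held a match. They are shown because Mybpc3 and Gkn2 are among the genes furthest above the induced cells in XEN cells, and Cck is a gene that the induced cells overshot. Each line gives 30 bases, 5′ to 3′ on the strand of the gene, with the motif in capitals.
Mybpc3, 61 bases before the start: ctagcaggaggcTGATAAgcagggctgggg
Gkn2, 218 bases before the start: tgcaaacctgagAGATAAacggagtgtttg
Gkn2, 123 bases before the start: gggtctcagtccTGATAAgggagtttgcta
Cck, 189 bases before the start: aggaagctctttAGATAAagagtaagaccc
The promoter windows they come from are chr2:91117894-91118193 (+ strand) for Mybpc3, chr6:87373115-87373414 (+ strand) for Gkn2 and chr9:121495645-121495944 (− strand) for Cck. A match was present in 18.9% of all 25748 promoters, silent genes included, and in 9.12% of the 9417 promoters of the genes compared here. A match is a description of the letters, not of binding.

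The libraries of a group resembled each other more than those of the other group. Pearson's r of log2(TPM + 1) was taken across the 15057 genes with a mean of 1 TPM or more in any group of the series. It was between 0.984 and 0.990 for pairs of 168 h libraries, 0.992 for the XEN pair and between 0.930 and 0.939 between the groups. TPM values keep no read depth, so the depth behind a low value is unknown. The labels were checked on markers. Gata6 itself was at 370, 317 and 346 TPM in the 168 h libraries and at 352 and 341 TPM in the XEN libraries, where the gene total does not separate transgene from endogenous transcripts. Replicate 3 of the 168 h group stood apart from its other libraries. Summed over all 22 pluripotency genes listed it held 3730 TPM against 2852 and 2843, and summed over all 19 fibroblast genes listed it held 482 TPM against 236 and 243. It also held little RNA of secreted visceral endoderm proteins (Ttr, which carries thyroid hormone, was at 2.31 TPM there against 52.4 and 44.1). Results that it decides are given with and without it.

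Genes were tested with limma on log2(TPM + 1), and a gene is called when its Benjamini-Hochberg adjusted p is below 0.05 and its difference exceeds 1 on the log2 scale. XEN cells had 653 genes higher than the 168 h cells, which is 5.16% of the genes compared, and 1330 genes lower, which is 10.5%. Among the 11167 genes at 1 TPM or more in both groups, 505 were higher and 855 lower. The rest passed the filter through 1 group alone, the group where they are high, so that their direction was set by the filter. In 1962 of all 1983 called genes (15.7% of those compared) every XEN library lay outside the range of the 168 h libraries. The same was true of 9284 of all 12653 genes compared, called or not. Differences above 3 on the log2 scale were found for 55 genes higher and 93 genes lower in XEN cells. The deposited values carry a shift between the groups: the median difference over all genes compared was -0.16 on the log2 scale, and 0.00 once libraries were rescaled by median-of-ratios factors. With rescaling 854 genes were called higher and 1020 lower, and higher calls then made up 45.6% of all calls in place of 32.9%. Directions below refer to the deposited scale, and lists that change with rescaling are named. In these bulk libraries fewer cells that express a gene and less RNA per cell cannot be told apart.

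**Figure D1:**
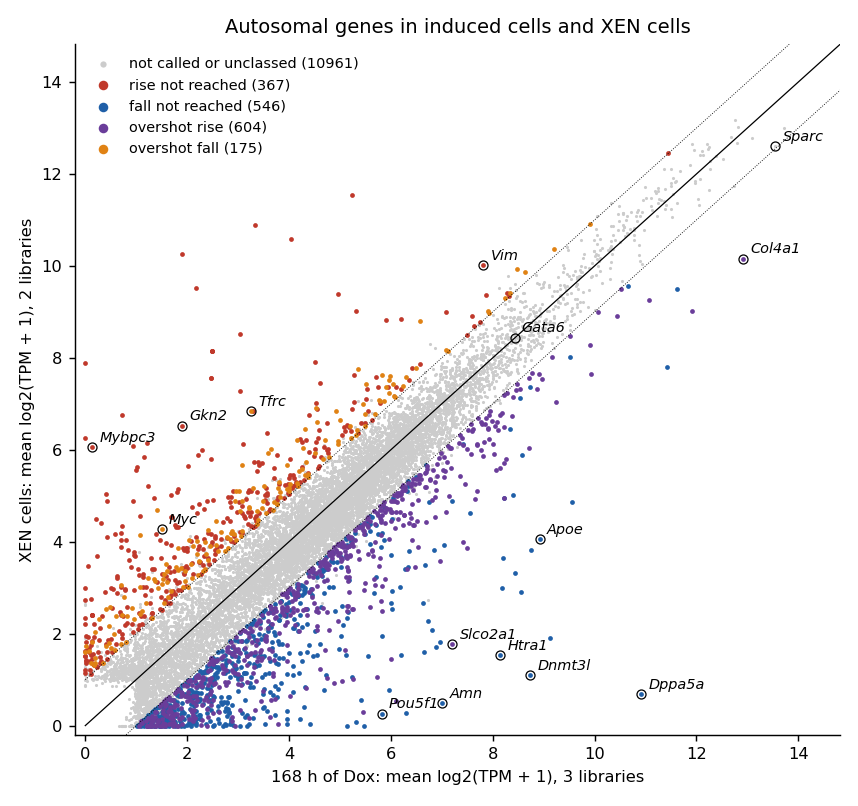
Each point is 1 of 12653 autosomal genes, at its mean log2(TPM + 1) in 3 libraries of 168 h induced cells (x axis) and in 2 libraries of XEN cells (y axis); the solid line marks equal levels and the dotted lines a difference of 1. Colours mark called genes by class, grey points were not called or fell in no class, and Gata6 sits on the diagonal while Dppa5a lies farthest below it.

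For most genes that Dox had changed by 168 h, no difference from XEN cells was called. Of 3252 genes called higher at 168 h than in untreated cells, 2526 (77.7%) were not called against XEN cells, and of 1474 called lower at 168 h, 1098 (74.5%) were not. A p that misses the threshold does not show equal levels. The genes called between XEN and 168 h cells were sorted by where the 168 h cells stood between untreated and XEN cells. For 913 genes the 168 h cells had not reached the XEN level: in 367 XEN cells were higher, in 546 lower. For another 779 they had overshot it: 604 genes had risen beyond the XEN level and 175 had fallen beyond it. In 422 of the 604 and 143 of the 175, XEN cells were not called different from 0 h. For those genes no net change between untreated and XEN cells was called. The last 291 called genes fell in no class. All 3 contrasts that define the classes share libraries, so these counts are a description.

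Genes whose rise was not reached mostly had no called change with Dox. Of the 367, 101 had risen part of the way, 260 had no called change from 0 h to 168 h, and 6 had moved the other way. Genes that had risen part of the way stood at a median of 0.93 above 0 h on the log2 scale at 96 h, 1.80 at 168 h and 3.39 in XEN cells. Those without a called change stood at 0.11 at 168 h and 1.90 in XEN cells. Among the 546 falls not reached, 195 were partial, with medians of -1.62 at 96 h, -1.92 at 168 h and -3.67 in XEN cells. The 330 not begun stood at -0.20 at 168 h and -1.80 in XEN cells, and 21 had moved the other way.

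The libraries of 72 h and 96 h did not enter the classes and show the direction of travel before the last interval. Over all genes compared, 0.759% were called higher and 0.775% lower at 96 h than at 72 h. In the partial falls the median step was -0.40 on the log2 scale and 20 of 195 genes (10.3%) were called lower. In the partial rises it was 0.20, with 5 of 101 genes (4.95%) called higher. In the rises not begun it was 0.03. Of the 604 overshot rises, 527 (87.3%) already lay on the same side of the XEN mean at 96 h. Of the 175 overshot falls 165 (94.3%) did. The share was 74.4% over all genes compared, most of which were not called. It was 99.5% in the rises not reached, 99.3% in the falls not reached and 97.3% in the unclassed genes. Overshot rises therefore had the lowest share among the called genes. Among the 182 overshot rises with XEN cells above 0 h the share was 78.0%.

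**Figure D2:**
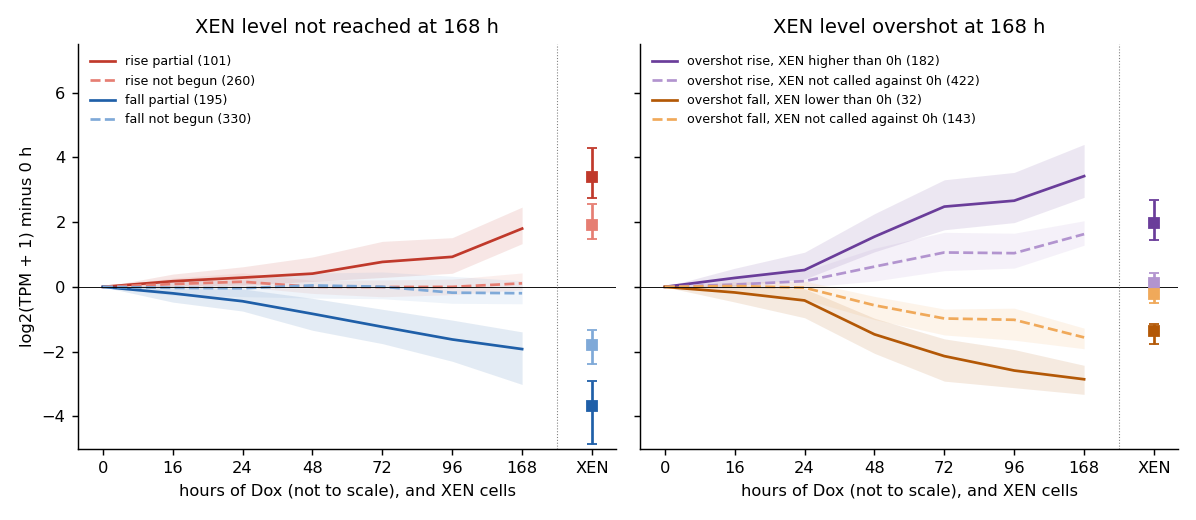
Lines give the median log2(TPM + 1) minus the 0 h mean for each class of genes across hours of Dox (x axis not to scale), shaded bands the middle 50% of genes, and squares with bars the same quantities in XEN cells. Left, rises and falls whose XEN level was not reached; right, overshot genes, in which the 182 genes with XEN cells above 0 h reached 3.42 at 168 h against 1.98 in XEN cells.

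In share of the library's RNA, the overshot rises were the larger group at 168 h. They took between 0.509% and 0.555% of all TPM at 0 h, 5.25% to 5.29% at 168 h and 1.56% to 1.57% in XEN cells. Falls not reached went from 5.33% to 5.34% at 0 h to between 2.49% and 2.55% at 168 h and between 0.438% and 0.440% in XEN cells. Rises not reached took 0.790% to 0.829% at 168 h and 3.44% to 3.47% in XEN cells.

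The largest falls included pluripotency genes that remained at 168 h, and genes that had risen with Dox and were low in XEN cells. These genes, and the largest rises below, were picked for the size of their difference among called genes whose groups did not overlap. Lack of overlap is therefore no result for them. Dppa5a, Pou5f1, Lncenc1, Apoc1, Amn, Nostrin and Tnk1 passed the filter through 168 h cells alone, so that the filter set their direction. Dppa5a, an RNA binding protein of pluripotent cells (chromosome 9, 78367052 to 78368177, GRCm38 as for all positions here), had the largest difference of all named genes. It was at 1741, 1706 and 2427 TPM in the 168 h libraries and at 1.18 and 0.172 TPM in the XEN libraries, a log2 difference of -10.24 (SE 0.18, limma adjusted p = 8.5e-19). Its mean at 0 h was 6163 TPM. The 168 h cells still held the transcript in quantity.

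Dnmt3l, the cofactor of the de novo DNA methyltransferases, was at 393, 399 and 490 TPM at 168 h against 0.95 and 1.36 TPM in XEN cells (log2 difference -7.63, SE 0.14). Its mean before Dox was 449 TPM, so that 168 h of Dox had not lowered it. Pou5f1, which encodes OCT4, was at 39.1, 39.1 and 112 TPM at 168 h and at 0.354 and 0.0506 TPM in XEN cells (log2 difference -5.57, SE 0.28), after 1654 TPM at 0 h and 500 TPM at 96 h. Its highest 168 h library was replicate 3. Lncenc1, a long noncoding RNA of naive ES cells, was at 36.1, 42.8 and 38.5 TPM against 0.0809 and 0.0202 TPM (log2 difference -5.25, SE 0.10).

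Apoc1, an apolipoprotein gene, was at 33.5, 50.6 and 48.4 TPM at 168 h and is listed at 0 in both XEN libraries. Its neighbour on chromosome 7, Apoe, which carries lipids between cells, is outside the rule for named genes and was looked up for its position. Apoe was at 633, 793 and 226 TPM at 168 h against 14.1 and 17.4 TPM (log2 difference -4.86, SE 0.36). Both had their 0 h means (246 and 730 TPM) above their XEN levels. The groups did not overlap for Apoe, and for Apoc1 the rule required this.

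Other large falls were of genes whose 0 h mean was below their 168 h level. Amn, the membrane anchor of the endocytic receptor of the visceral endoderm (chromosome 12, 111271095 to 111276426), was at 166, 161 and 78.0 TPM at 168 h against 0.556 and 0.263 TPM (log2 difference -6.52, SE 0.26). Its mean was 3.27 TPM at 0 h and 326 TPM at 96 h. Htra1, a secreted serine protease, was at 259, 266 and 325 TPM against 1.96 and 1.80 TPM (log2 difference -6.62, SE 0.19). The means of Htra1 were 40.2 TPM at 0 h and 598 TPM at 96 h, so the level had already come down from 96 h to 168 h.

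Nostrin, which regulates endocytosis and nitric oxide synthase traffic, was at 62.5, 67.0 and 74.0 TPM at 168 h against 0.506 and 0.415 TPM in XEN cells (log2 difference -5.56, SE 0.19). Its mean at 96 h was higher, at 152 TPM. Slco2a1, the prostaglandin transporter, was at 130, 172 and 141 TPM against 2.31 and 2.50 TPM (log2 difference -5.44, SE 0.19), and had a mean of only 14.5 TPM at 96 h. Tnk1, a non-receptor tyrosine kinase, was at 67.4, 101 and 67.9 TPM against 0.324 and 0.111 TPM (log2 difference -6.01, SE 0.34).

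Next among the overshot rises were Plbd1 (log2 difference -5.16), Creb3l1 (-4.66), a membrane-bound transcription factor that controls collagen genes and secretory load, and Cck (-4.56), the precursor of the peptide cholecystokinin. Plbd1 passed the filter through 168 h cells alone, so that the filter set its direction. Cck spread most, at 28.7, 55.8 and 155 TPM in the 168 h libraries against 1.60 and 1.85 TPM in XEN cells, with a mean of 1.53 TPM at 96 h. It was therefore at its XEN level at 96 h and went beyond it in the last interval.

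Of the 5 largest rises in XEN cells, 4 had no called change from 0 h to 168 h. Mybpc3, the cardiac myosin binding protein C (chromosome 2, 91118144 to 91136516), was at 0.173, 0.122 and 0.0101 TPM in the 168 h libraries and at 65.0 and 66.7 TPM in the XEN libraries. The log2 difference was 5.93 (SE 0.10, limma adjusted p = 2.9e-19), the largest rise among the named genes. Pi16, a peptidase inhibitor, was at 0.315, 0.518 and 0.182 TPM against 31.9 and 32.1 TPM (log2 difference 4.63, SE 0.21). No 168 h library of either gene reached 1 TPM. Both were picked for the size of their difference and passed the filter through XEN cells alone, so that the filter set their direction.

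Gkn2, a secreted gastrokine of the stomach lining (chromosome 6, 87373357 to 87379497), was listed at 0 at 0 h and was at 4.15, 1.54 and 3.02 TPM at 168 h against 92.0 and 90.0 TPM in XEN cells (log2 difference 4.62, SE 0.18). Of the 5 largest rises it was the gene that had begun to rise. Gkn1, its neighbour and paralogue, is outside the rule and was looked up for its position: it was at 1.14, 0.315 and 0.994 TPM against 13.3 and 12.8 TPM (log2 difference 2.98, SE 0.17). Hapln3, a hyaluronan link protein, was at 0.570, 0.853 and 1.74 TPM against 47.9 and 44.2 TPM (log2 difference 4.56, SE 0.22). Lbp, which hands lipopolysaccharide to its receptor, was at 0.265, 0.142 and 0.314 TPM against 25.5 and 16.3 TPM (log2 difference 4.11, SE 0.25). The rule required the groups to be apart for Gkn2, Hapln3 and Lbp, and they were apart for Gkn1 too. Rises of 3.61 to 3.99 followed for Igsf11, Mgll (the lipase of monoacylglycerols), Ica1, AI662270 and Lgals7. Lbp and Mgll passed the filter through XEN cells alone, which set their direction.

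The genes that Dox had taken below their XEN level included growth genes. Tfrc, the transferrin receptor that brings iron into cells (chromosome 16, 32608920 to 32632794), had a mean of 123 TPM at 0 h and was at 8.84, 8.48 and 8.33 TPM at 168 h against 115 and 112 TPM in XEN cells (log2 difference 3.58, SE 0.24). Myc, the growth-promoting transcription factor, had a mean of 29.9 TPM at 0 h and was at 1.54, 1.73 and 2.27 TPM against 19.4 and 17.3 TPM (log2 difference 2.77, SE 0.16). In both genes XEN cells were near untreated ES cells and 168 h cells stood below either. The same class held Nrp2, a semaphorin and VEGF co-receptor (3.29), Ddc, aromatic amino acid decarboxylase (3.06), and Snhg4, a small nucleolar RNA host gene (2.61).

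**Figure D3:**
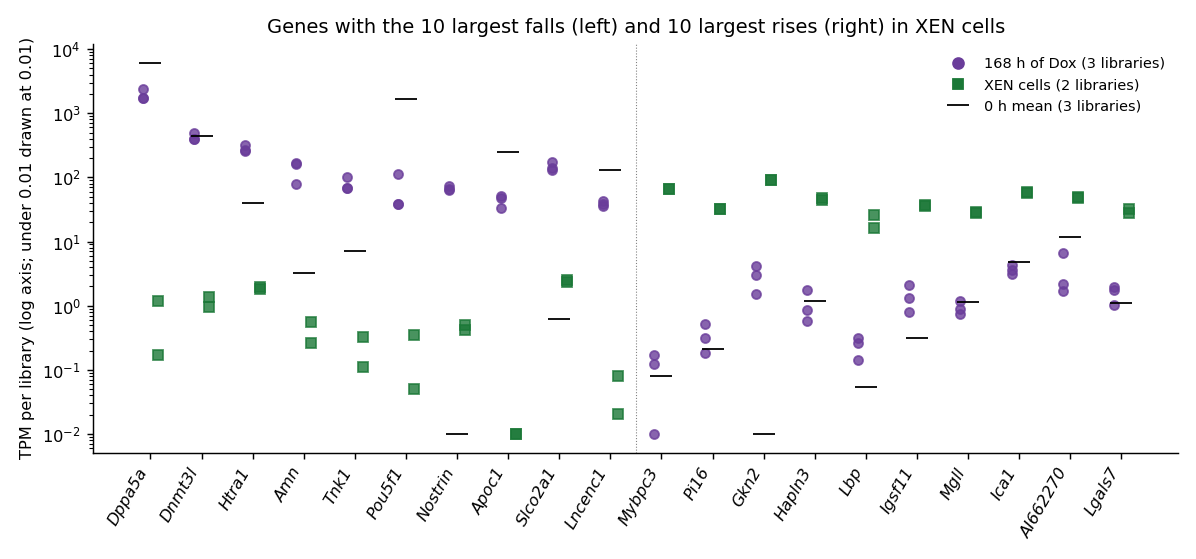
TPM of each library (log axis, values under 0.01 drawn at 0.01) for the 10 largest falls (left) and 10 largest rises (right) of XEN cells against 168 h cells. Circles are the 3 libraries of 168 h, squares the 2 XEN libraries and bars the 0 h mean. Genes were picked so that no square lies within the range of circles of its gene.

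Gene lists for the biology of these cells were then read one by one, each by its counts and its median against the -0.16 of all genes compared. The counts of every list stand beside 5.16% called higher and 10.5% called lower over all genes compared. Most endoderm transcription factors were not called. Of 10 measured, 2 were called, both lower in XEN cells, beside 10.5% of all genes compared that were called lower. The list median was -0.29. Gata6 differed by 0.01 on the log2 scale (SE 0.10). Gata4, its close relative, was at 424, 378 and 438 TPM in the 168 h libraries against 336 and 347 TPM (-0.27, SE 0.13), and Sox17, an HMG box factor of endoderm, at 295, 298 and 257 TPM against 297 and 300 TPM (0.08, SE 0.20). For Gata6 and Sox17 the ranges of the groups overlapped, and for Gata4 XEN cells lay lower but within the threshold. The calls included Eomes, a T-box factor (3.80, 3.53 and 3.30 TPM against 0.0910 and 0 TPM). Eomes passed the filter through 168 h cells alone, so that its direction was set by the filter. After rescaling 1 gene of the list, Eomes, was called.

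Genes of the parietal endoderm split. Of 15 measured, 3 were called higher and 4 lower, beside 5.16% and 10.5% of all genes compared, with a median of -0.36. Vim, the intermediate filament of mesenchymal and parietal cells, was at 253, 261 and 172 TPM in the 168 h libraries against 1024 and 1049 TPM in XEN cells (2.20, SE 0.60), and its 0 h mean was 105 TPM. Krt19, a keratin of simple epithelia, was at 11.8, 16.5 and 18.2 TPM against 53.2 and 56.3 TPM (1.78, SE 0.36). Plat, tissue plasminogen activator, was at 215, 168 and 211 TPM against 416 and 414 TPM (1.07, SE 0.34). The groups were apart for all 3 genes, but the call on Plat was lost without 168 h replicate 2 or without either XEN replicate, and also when chromosome medians were set equal.

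The parietal genes that were lower include the chains of the main basement membrane collagen. Col4a1 was at 7905, 7559 and 7654 TPM at 168 h against 1130 and 1156 TPM in XEN cells (-2.75, SE 0.15), and Col4a2, transcribed from the same promoter region in the opposite direction on chromosome 8, at 3898, 3862 and 3789 TPM against 507 and 528 TPM (-2.89, SE 0.19). Their 0 h means were 11.2 and 5.79 TPM, so both had risen far in the induced cells and overshot the XEN level. Snai1, a repressor of epithelial genes, was at 222, 205 and 190 TPM against 69.4 and 68.2 TPM (-1.56, SE 0.19). Srgn, a secretory granule proteoglycan, was at 2371, 1959 and 2101 TPM against 628 and 591 TPM (-1.81, SE 0.35).

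The laminins did not follow the collagens. Of 16 basement membrane components, 1 was called higher and 3 lower, with a median of -0.18. The chains of laminin 111 were not called: Lama1 differed by -0.18 (SE 0.15), Lamc1 by -0.18 (SE 0.13) and Lamb1 by -0.57 (SE 0.15). Sparc, a collagen-binding glycoprotein, was the highest gene of the list at 11826, 11706 and 12470 TPM against 6313 and 6134 TPM and missed the size threshold at -0.95 (SE 0.25). Agrn, agrin, was the third lower gene (-1.68, SE 0.17). Fbln2, fibulin-2, was higher in XEN cells at 122 and 134 TPM against 17.9, 22.5 and 27.0 TPM (2.48, SE 0.35), from a 0 h mean of 23.8 TPM.

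Visceral endoderm genes were lower in XEN cells. Of 18 measured, 8 were called lower and 1 higher, and the median was -1.09. Of these, 7 passed the filter through 168 h cells alone, and among the other 11 genes 4 were lower and 1 higher. Cubn, the endocytic receptor that pairs with Amn, was at 387, 359 and 194 TPM at 168 h against 52.0 and 51.0 TPM in XEN cells (-2.52, SE 0.30), and Lrp2, or megalin, at 266, 268 and 316 TPM against 47.5 and 48.4 TPM (-2.53, SE 0.34). Ihh, a hedgehog ligand of visceral endoderm, was at 28.4, 28.5 and 14.1 TPM against 4.19 and 4.92 TPM (-2.09, SE 0.33). Of these 3 genes, no XEN library entered the 168 h range. The one higher gene was Spink1, a trypsin inhibitor, at 164 and 163 TPM against 86.8, 66.6 and 24.7 TPM.

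The secreted proteins of the list turned on 1 library. Apob, the apolipoprotein of large lipoproteins, was at 5.78, 4.04 and 0.0608 TPM in the 168 h libraries against 0.0910 and 0.111 TPM. Ttr, at 52.4, 44.1 and 2.31 TPM against 7.02 and 7.10 TPM, and Rbp4, the retinol carrier, at 30.2, 38.8 and 1.29 TPM against 8.85 and 9.97 TPM, were not called. In all 3 genes replicate 3 lay below both XEN libraries, and the other 168 h libraries above them. Without it 13 of the 18 were called lower, with Ttr, Rbp4, Afp, Apom and Soat2 added. Apoa1 was called lower while its groups overlapped, and lost the call without 168 h replicate 1, 168 h replicate 2 or XEN replicate 2. Apoa4, at 4.39, 3.10 and 0.172 TPM at 168 h, is listed at 0 in both XEN libraries.

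Endocytic and lysosomal genes, the machinery that the visceral endoderm uses for uptake, were also lower. Of 19 measured, 9 were called, all lower (15 lower at an unadjusted limma p under 0.05), with a median of -0.89. Lrp2, Cubn and Amn are among the 9 and were already counted with the visceral endoderm genes. Hexa, a subunit of lysosomal hexosaminidase, was at 89.9, 87.3 and 61.6 TPM at 168 h against 9.42 and 9.69 TPM (-2.91, SE 0.28). Dab2, the clathrin adaptor of megalin, was at 632, 564 and 525 TPM against 264 and 256 TPM (-1.13, SE 0.26), and Ctsd, cathepsin D, at 1129, 1127 and 959 TPM against 513 and 502 TPM (-1.07, SE 0.12). The groups were apart in all 3, and 8 of the 9 were overshot rises. After rescaling 5 were called lower (Lrp2, Cubn, Amn, Ctsc and Hexa), so the smaller differences depend on the scale. Without 168 h replicate 3 there were 11 calls.

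Pluripotency genes were the list furthest below zero among those with 10 or more genes measured. Of 20, 15 were called, all lower in XEN cells, with a median of -1.44, and 13 of them were falls not reached. The filter was passed through 168 h cells alone by 9 of the 20, and among the other 11 genes 6 were called, all lower. Dppa2 and Dppa4, paired chromatin factors, were at 12.2 to 17.7 TPM and 11.9 to 12.5 TPM at 168 h against at most 0.192 TPM in XEN cells (-3.82 and -3.50). Zfp42, or Rex1, was at 31.1, 32.1 and 33.3 TPM against 3.11 and 4.04 TPM (-2.87, SE 0.10). Nanog and Sox2 had come down to 1.48 to 1.98 TPM and 3.10 to 3.31 TPM from means of 281 and 323 TPM, and were still above XEN cells (-1.41 and -2.02). Esrrb and Tdgf1 are listed at 0 in both XEN libraries.

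Not all genes of the list were low in XEN cells. Lin28a, an RNA binding protein, was at 110, 113 and 87.8 TPM at 168 h against 110 and 116 TPM (0.13, SE 0.13), near its 0 h mean of 119 TPM. Klf5, at 129, 143 and 165 TPM against 57.1 and 59.6 TPM (-1.30), and Sall4, at 129, 130 and 121 TPM against 57.7 and 59.1 TPM (-1.10), had 0 h means of 107 and 100 TPM, with no called change between 0 h and 168 h. Klf4, Tbx3 and Tfcp2l1 were among the 5 not called. Summed over the list, the 168 h libraries held 2843 to 3730 TPM and the XEN libraries 382 to 388 TPM. After rescaling 13 genes were called lower, without Dnmt3b and Sall4, and without 168 h replicate 3 the call on Esrrb was lost.

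Genes of DNA methylation share Dnmt3l and Dnmt3b with this list. Of 8 measured, 5 were called, all lower in XEN cells: Dnmt3l, Dnmt3b (-1.03), Dnmt3a (-1.51), Tet1 (-1.5) and Tet2 (-1.97). Dnmt3a, a de novo methyltransferase, was at 14.5, 13.5 and 18.1 TPM against 4.40 and 5.01 TPM, and Tet2, which oxidises methylcytosine, at 7.99, 8.75 and 10.3 TPM against 1.76 and 1.35 TPM. Dnmt1, the maintenance enzyme, was at 97.8, 95.5 and 109 TPM against 94.5 and 94.7 TPM (-0.09, SE 0.08), and Tet3 and Uhrf1 were below the size threshold on the higher side. The call on Dnmt3b was lost after rescaling, which left 4 genes lower, and without XEN replicate 1. Of 16 germline genes, Sycp3 and Ddx4 passed the filter, both through 168 h cells alone (differences of -1.09 and -2.33), so that their direction was set by the filter.

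Markers of other cells were read beside these lists. Of 18 fibroblast genes measured, 3 were called higher and 4 lower, beside 5.16% and 10.5% of all genes compared, with a median of -0.30. The contractile genes Acta2 (18, 17.9 and 38.9 TPM against 179 and 168 TPM, 2.84) and Tagln (16.6, 19.8 and 33.6 TPM against 117 and 117 TPM, 2.34) and the microfibril gene Fbn1 were higher in XEN cells. Col3a1 (37.7, 32.7 and 70.1 TPM against 6.34 and 9.03 TPM, -2.40), Dcn, Lum and Twist1 were lower. Dcn and Lum passed the filter through 168 h cells alone, so that the filter set their direction. Among the other 16 genes 3 were higher and 2 lower. Col1a1 and Col1a2, fibrillar collagens of feeder cells, were not called, at 36.5 to 75.9 TPM against 34.8 to 40.9 TPM. Summed, the list held 236, 243 and 482 TPM at 168 h and 490 and 483 TPM in XEN cells, and Lum and Dcn were the measured genes nearest to 0 in XEN cells. After rescaling, as without 168 h replicate 3, the counts were 5 higher and 3 lower. The call on Dcn was lost without 168 h replicate 3 or either XEN replicate, and that on Fbn1 without 168 h replicate 1, 168 h replicate 2 or either XEN replicate. The part of feeder cells in these differences was not tested. Of 8 trophectoderm markers 3 passed the filter, all through 168 h cells alone, and Tfap2c and Hand1 differed by -1.5 and -1.49, a direction set by the filter.

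Adhesion genes went both ways. Of 19 epithelial and mesenchymal genes, 3 were called higher and 6 lower, with a median of 0.26, and after rescaling 4 higher and 4 lower, without Epcam and Cldn4. Cdh1, or E-cadherin, was at 15.2, 16.5 and 11.9 TPM at 168 h against 4.46 and 4.53 TPM in XEN cells (-1.49, SE 0.14), after a 0 h mean of 142 TPM. Epcam was at 80.02, 83.4 and 77.4 TPM against 39.9 and 37.9 TPM (-1.03, SE 0.12), and the tight junction claudins Cldn4 and Cldn7 were lower too (-1.02 and -1.32). Cldn4 passed the filter through 168 h cells alone, so that the filter set its direction. Cdh2, or N-cadherin, was higher in XEN cells at a low level (3.61 and 3.77 TPM against 1.13 to 1.46 TPM). Snai1 and Twist1, which repress epithelial genes, were both lower in XEN cells, while the keratin Krt8 was not called (0.26). Without 168 h replicate 2 the calls on Epcam, Cldn4 and Cdh2 were lost, without 168 h replicate 3 that on Cldn4, and without XEN replicate 2 that on Epcam. With chromosome medians set equal the calls on Cdh2, Epcam and Cldn4 were lost.

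**Figure D4:**
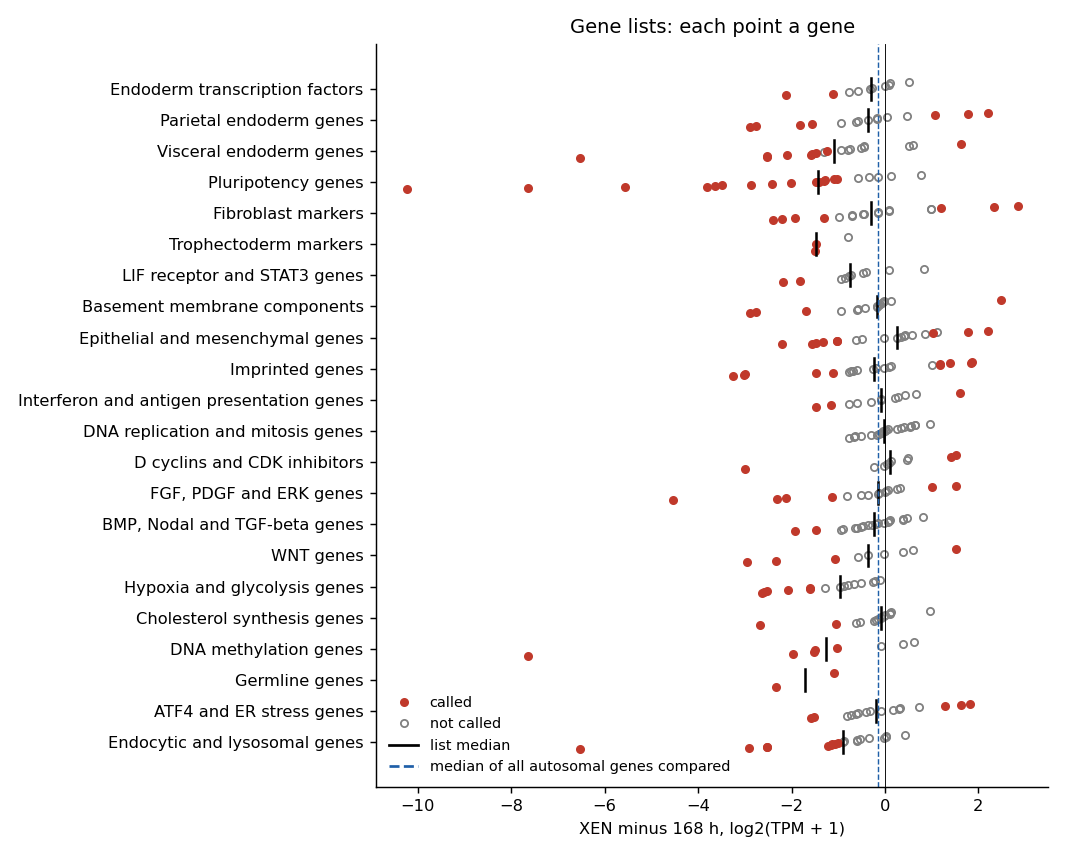
Each point is a gene, at its difference XEN minus 168 h on the log2(TPM + 1) scale (x axis); rows are gene lists, filled points were called by limma, black bars are list medians and the dashed line is the median of all autosomal genes compared (-0.16). Pluripotency (15 of 20 genes called lower), visceral endoderm and endocytic genes lie to the left, and the replication and mitosis genes all lie within 1 of zero.

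Signalling genes were read by pathway. Egr1, an immediate early gene of ERK signalling, was at 346, 357 and 203 TPM at 168 h against 11.4 and 11.8 TPM in XEN cells (-4.55, SE 0.65), from a 0 h mean of 63.1 TPM. Other ERK targets went both ways: Dusp6, an ERK phosphatase, was lower (-1.13), while Spry4 (1.01) and Etv4 (1.52) were higher, both from 168 h levels under 4 TPM. The ligands Fgf10 (46.8, 45.6 and 73.1 TPM against 9.94 and 10.3 TPM, -2.30) and Pdgfa (-2.12) were lower, and the receptor Pdgfra, a marker of primitive endoderm, was not called (-0.36, SE 0.17). In all, 2 of 16 FGF, PDGF and ERK genes were higher and 4 lower, with a median of -0.14. After rescaling 3 were lower, without Dusp6. The call on Dusp6 was also lost without 168 h replicate 2, and that on Spry4 without 168 h replicate 1 or 3 and with chromosome medians set equal.

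The LIF pathway, whose ligand only the induced cells received, had 2 of 10 genes called. Both were lower, beside 10.5% of all genes compared that were called lower. Socs3, the feedback inhibitor that STAT3 induces, was at 34.3, 39.6 and 135 TPM at 168 h against 15.6 and 15.1 TPM (-1.83, SE 0.40), and Bcl3 at 4.17, 5.70 and 8.93 TPM against 0.698 and 0.384 TPM (-2.19, SE 0.18). Bcl3 passed the filter through 168 h cells alone, so that the filter set its direction. Among the other 9 genes 1 was called, lower. The list median was -0.74, and at a limma adjusted p under 0.05 with no minimum difference there were 7 genes lower and 1 higher. Without 168 h replicate 1, 4 were called lower. The receptor gene Lifr was at 231, 237 and 318 TPM against 212 and 182 TPM and was not called.

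Among 20 BMP, Nodal and TGF-beta genes 2 were called lower, near the 10.5% of all genes compared. They were Bmp6 (15.5, 18.6 and 15.0 TPM against 3.94 and 3.26 TPM, -1.92) and Tdgf1, which passed the filter through 168 h cells alone. Fst and Nog, secreted antagonists that Dox had raised, were not called. Among 9 WNT genes 1 was higher and 3 were lower. Wnt11, a ligand, was at 158, 165 and 59.8 TPM at 168 h against 22.2 and 22.1 TPM (-2.33, SE 0.34), and Sfrp1, a secreted antagonist, at 7.24, 9.77 and 7.43 TPM against 0.182 and 0.162 TPM (-2.95, SE 0.18). Sfrp1 passed the filter through 168 h cells alone, so that the filter set its direction. Wnt7b was higher (11.7 and 12.9 TPM against 2.85 to 4.83 TPM, 1.53), which brought it near its 0 h mean of 19.8 TPM. After rescaling 2 WNT genes were lower.

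Genes of DNA replication and mitosis differed by less than 1 each. Of 22 measured, limma called 0 by both criteria, with a median of -0.02. At a limma adjusted p under 0.05 with no minimum difference, 8 were higher and 6 lower, the same numbers as at an unadjusted p under 0.05, and after rescaling 1 was called higher. Top2a, topoisomerase of chromosome segregation, was at 315, 330 and 318 TPM at 168 h against 206 and 197 TPM (-0.67), and Mcm2, a subunit of the replicative helicase, at 91.0, 79.1 and 86.5 TPM against 170 and 166 TPM (0.97). In both the groups were apart. Of 10 D cyclins and CDK inhibitors, Ccnd1 (24.9 and 26.3 TPM against 6.87 to 10.5 TPM, 1.53) and Cdkn2a (88.0 and 96.2 TPM against 23.9 to 43.2 TPM, 1.4) were higher in XEN cells. Cdkn1c, an imprinted inhibitor, was lower (0.698 and 0.769 TPM against 10.8 to 14.5 TPM, -2.99), but passed the filter through 168 h cells alone, which set its direction.

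Hypoxia genes were lower. Of 15 hypoxia and glycolysis genes 6 were called, all lower in XEN cells, with a median of -0.96. Vegfa, the vascular growth factor, was at 182, 225 and 212 TPM at 168 h against 32.9 and 33.4 TPM (-2.60, SE 0.18), and Egln3, an oxygen sensor, at 96.5, 120 and 65.7 TPM against 14.6 and 13.0 TPM (-2.64, SE 0.58). In both, XEN cells were near the 0 h mean. The glycolytic enzymes Ldha (-0.22) and Aldoa (-0.51) were not called. Without 168 h replicate 3, 9 of the 15 were lower.

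Amino acid synthesis genes were among those higher in XEN cells. Phgdh, the first enzyme of serine synthesis, was at 72.8, 73.7 and 45.2 TPM at 168 h against 190 and 197 TPM (1.62, SE 0.15), and Psat1, the next enzyme, at 69.6, 63.1 and 38.7 TPM against 200 and 193 TPM (1.81, SE 0.22). Asns, asparagine synthetase, was also higher (1.28, SE 0.18), and all 3 were overshot falls, with 0 h means of 150, 285 and 253 TPM. They belong to a list of 16 ATF4 and endoplasmic reticulum stress genes with 3 higher and 2 lower, the lower being Trib3 (-1.53) and Chac1 (-1.59). Atf4 itself was not called (-0.41, SE 0.13). The call on Asns was lost with chromosome medians set equal. Of 15 cholesterol synthesis genes 2 were lower, beside 10.5% of all genes compared. Among them was Insig1, which holds back sterol synthesis (483, 488 and 316 TPM against 65.3 and 64.9 TPM, -2.67). After rescaling 1 gene of this list was higher and 1 lower.

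Of 20 imprinted genes 10 were called, 5 in each direction, beside 15.7% of all genes compared, with a median of -0.23. After rescaling 4 were lower, without Igf2r. Igf2, the fetal growth factor, was at 101, 91.8 and 71.8 TPM at 168 h against 10.3 and 9.56 TPM in XEN cells (-3.02, SE 0.35), near its 0 h mean of 8.54 TPM. H19, the noncoding RNA that neighbours Igf2 and shares its control region, was not called (49.0, 48.1 and 62.4 TPM against 57.8 and 58.5 TPM). Peg10 and Sgce, adjacent genes on chromosome 6 that run in opposite directions, were higher in XEN cells by 1.87 and 1.83. Slc38a4, an amino acid transporter, was lower (12.3, 11.4 and 9.04 TPM against 0.142 and 0.364 TPM, -3.25). Slc38a4, Cdkn1c and Dlk1 passed the filter through 168 h cells alone, so that the filter set their direction. Among the other 17 imprinted genes 5 were higher and 2 lower.

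Igf2r, the receptor that clears IGF2, was lower in XEN cells (103, 108 and 99.7 TPM against 47.4 and 47.0 TPM, -1.11), and Airn, its antisense RNA on chromosome 17, was higher (4.52, 5.37 and 6.23 TPM against 14.7 and 16.6 TPM, 1.39). These genes overlap on opposite strands, and counting used strand. Mest (1.18) and Ndn (1.19) were higher at levels up to 10.5 TPM, and the call on Mest was lost with chromosome medians set equal. Dlk1 was called lower, but its groups overlapped, at 4.71, 9.08 and 0.740 TPM against 0.374 and 1.03 TPM, and the call was lost without 168 h replicate 2 or XEN replicate 1.

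Of 12 interferon and antigen presentation genes 1 was higher and 2 lower, beside 5.16% and 10.5% of all genes compared. H2-K1, a classical class I heavy chain, was at 40.7, 57.8 and 37.8 TPM at 168 h against 151 and 124 TPM (1.60, SE 0.35), while H2-D1 was not called (51.9, 57.9 and 38.6 TPM against 29.8 and 33.6 TPM). The class I genes are near-identical to each other and differ between strains, and the lines differ in strain, so that these levels are uncertain. Tap1 (-1.48), the peptide transporter, and Psmb9 (-1.17), a proteasome subunit, were lower. Psmb9 was at 1.53, 1.41 and 3.79 TPM at 168 h, and its call was lost without replicate 3. It passed the filter through 168 h cells alone, so that the filter set its direction.

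The differences were not spread evenly over the chromosomes. The median difference was between 0.28 and 0.31 on the log2 scale for chromosomes 6, 8, 16 and 19, 0.15 for chromosome 18, -0.09 for chromosome 14 and between -0.29 and -0.20 for the remaining 13 autosomes. These chromosomes were singled out after their values were seen. Among genes of at least 5 TPM in both groups, the median ratio of XEN to 168 h TPM was 1.24 to 1.30 on chromosomes 6, 8, 16 and 19 in both XEN libraries, and 0.839 to 0.883 on the 13. Relative to the median of the other chromosomes, the ratio in the XEN libraries was 1.49 and 1.51 for chromosome 6, 1.45 and 1.45 for chromosome 8, 1.509 and 1.504 for chromosome 16, 1.44 and 1.45 for chromosome 19, and 1.32 and 1.35 for chromosome 18. The 168 h libraries differed from their own mean by -0.04 to 0.03 in the chromosome medians, and the change from 0 h to 168 h was 0.12 to 0.38 on every autosome.

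**Figure D5:**
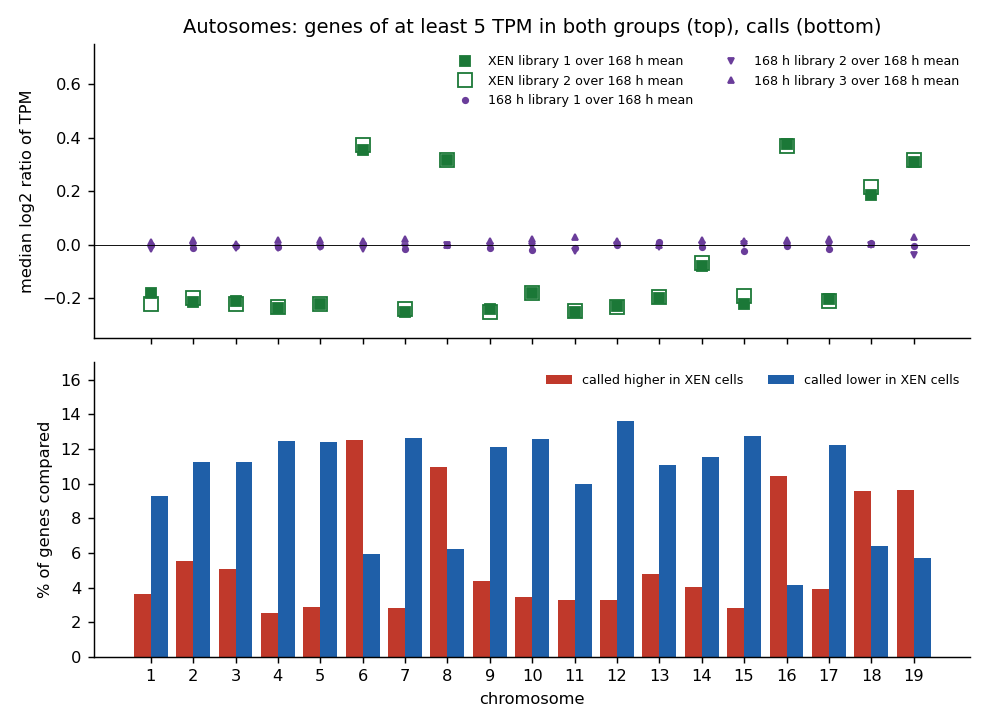
Top, median log2 ratio of TPM to the 168 h mean for autosomal genes of at least 5 TPM in both groups, by chromosome (x axis), for each XEN library (squares) and each 168 h library (small symbols). Bottom, percentage of the genes compared on each chromosome that were called higher or lower in XEN cells; chromosomes 6, 8, 16, 18 and 19 lie above zero at the top and are those with more higher than lower calls.

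These 5 chromosomes carry 2541 of the genes compared (20.1%) and 275 of the 653 genes higher in XEN cells. Of their genes 10.8% were called higher and 5.75% lower, against 3.74% and 11.7% of the 10112 genes on the other autosomes. They held 143 of the 367 rises not reached and 84 of the 175 overshot falls, Tfrc among them. The excess was not the same at all sizes. Beside their 20.1% of genes, the 5 chromosomes held 43.6% of the higher calls of 1 to 2 on the log2 scale, 44.0% of those of 2 to 3 and 25.5% of those above 3. With the median of each chromosome set equal, 551 genes were higher and 1302 lower, 1657 of the calls were shared, and the 5 chromosomes had 4.60% higher and 11% lower calls. This setting was chosen after seeing the data. Gene dose was not measured and its part in the pattern was not tested. The direction of Gata6, on chromosome 18, is not settled by these data: it went from 0.01 to -0.29 in that setting, and was called in neither.

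A share of the largest rises were copies of other genes. Processed pseudogenes were 447 of the genes compared, and 72 of them (16.1%) were higher and 48 (10.7%) lower, against 4.52% higher and 10.4% lower for 11342 coding genes. Of the 55 genes higher by more than 3 on the log2 scale, 24 were processed pseudogenes and 26 coding genes. Rps2, a ribosomal protein gene chosen after its values were seen, was at 3005, 2682 and 2567 TPM at 168 h and at 229 and 218 TPM in XEN cells. Its 12 pseudogenes by symbol summed to 378, 344 and 347 TPM and to 3815 and 3794 TPM. Gene and pseudogenes together held 3384, 3026 and 2915 TPM at 168 h and 4044 and 4012 TPM in XEN cells, so that the fall of the gene and the rise of its copies offset each other.

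The same held for Rps18, at 3179, 3247 and 2986 TPM against 732 and 715 TPM alone and 3231, 3286 and 3035 TPM against 4304 and 4204 TPM with its 6 copies. Rbpj, the DNA binding factor of Notch signalling, was called lower (20.5, 21.4 and 21.04 TPM against 6.08 and 6.32 TPM, -1.61), but with its 2 copies the sums were 21.1, 22.8 and 21.2 TPM against 25.8 and 25.1 TPM. Of 286 genes with a pseudogene by symbol 27 were called lower, and in 4 of these the sum over the family differed by 1 or less on the log2 scale. The values of Rps2, Rps18, Rbpj and their copies are uncertain here. How reads were divided among copies in lines of different strain was not tested.

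Promoter letters differed somewhat between the classes. AGATAA or TGATAA was present in 31 of 198 promoters (15.7%) of the rises not reached, 22 of 372 (5.91%) of the falls not reached, 43 of 468 (9.19%) of the overshot rises and 9 of 126 (7.14%) of the overshot falls, beside 9.12% of all genes compared. The SOX letters ACAATG or ACAATA, which can share letters with a following TGATAA, were present in 16.7% of the rises not reached, 10.5% of the falls not reached, 11.5% of the overshot rises and 8.73% of the overshot falls, beside 10.9% of all genes compared and 19.6% of all promoters. Both shares were highest in the rises not reached, and no test was made of them.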

How the data were processed

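Stranded, polyA-selected RNA-seq libraries were demultiplexed, trimmed, aligned to mm10 and quantified per gene by the authors (bcl2fastq, cutadapt, STAR and RSEM in the submitters' processing notes; versions not given in the sources used here). The deposited TPM values of 23 libraries in 44915 rows were used, of which 44853 genes remained once the row of highest mean was kept for 60 symbols found on more than 1 row. Column names matched the labels. TPM keeps no depth, so no counting error is given. The siRNA libraries were not analysed here, and a few genes are not reported here. The members, gene lists and named genes were chosen with earlier results of these data known.

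Genes of mean 1 TPM or more in any group (15057) were fitted with limma 3.58.1 (R 4.3.3; trend and robust) on log2(TPM + 1), with 1 mean per group over all 23 libraries. Values in the text are differences on that scale, which understates changes of low genes. Adjusted p-values are Benjamini-Hochberg over all 15057 genes, and calls need an adjusted p under 0.05 and a difference above 1. A gene was not reached when XEN differed from 0 h in the direction of the XEN against 168 h call, and overshot when 168 h differed from 0 h in the direction away from XEN, both called. A gene that met both definitions was counted as not reached. The exact permutation test of 3 against 2 libraries cannot reach 0.05 and was not used.

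Named genes were list members, the 10 largest rises and falls, and the 5 largest per class and direction, among called autosomal genes with libraries apart and a mean of 5 TPM in 1 group, without predicted models and pseudogenes. Alternatives were another scaling, filters, pseudocount 0.1, fewer groups, a replicate block, each library left out, other thresholds, and, chosen after seeing the data, a gene length correction and equal chromosome medians. Positions and gene types came by symbol from GENCODE M21 (GRCm38, which is mm10) or, for 1053 genes, RefSeq, and promoters from RefSeq. The scripts were tested on simulated data. Python 3.11.15, numpy 2.4.6, pandas 2.3.3 and matplotlib 3.10.9 made the summaries and figures.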

Additional observations from a re-analysis of the deposited data

How the results depend on the processing

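Without a minimum difference of 1, limma called 2507 genes higher and 4532 lower in XEN cells, of which 3254 were not reached and 3565 overshot. Over the other planned settings 528 to 854 genes were higher and 901 to 1788 lower, and leaving out each library in turn gave 642 to 662 higher and 1285 to 1419 lower. Replicate numbers did not pair the groups, which are different lines: the deviations of same-numbered libraries correlated at -0.03 and -0.01. The fit with replicate number as a block gave 660 higher and 1358 lower, with Gata6 at -0.00519 and Sox17 at -0.0103. Settings chosen after seeing the data gave 807 higher and 1033 lower with the trend of gene length removed, and 551 and 1302 with chromosome medians set equal.

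Among the genes named, those that changed sign were not called in the main fit. After rescaling Col1a1 was at 0.0106 and Dnmt1 at 0.0817. With the length trend removed Col1a1 was at 0.0115, Dnmt1 at 0.0857, Lama1 at 0.0232 and Lamc1 at 0.00422. With chromosome medians set equal Dnmt1 was at 0.0268 and Gata6 at -0.29. Over the libraries left out, Gata6 ranged from -0.0474 to 0.0623, Col1a1 from -0.30 to 0.11 and Rbp4 from -1.76 to 0.30. The causes were not tested. Depth is unknown for TPM, so values under 1 TPM carry an error that cannot be stated.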

Other observations

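Outside the lists, coding genes with differences above 3 on the log2 scale were looked up after their values were seen. Several that were higher in XEN cells are known from vessels and their lining. Cdh5, the cadherin of endothelial cells, was at 2.36, 1.75 and 3.68 TPM in the 168 h libraries against 33.9 and 34.9 TPM in XEN cells (log2 difference 3.34, SE 0.34). Edn1, the peptide endothelin-1, was at 0.661, 0.437 and 0.781 TPM against 14.9 and 12.8 TPM (3.19, SE 0.14), and Lpl, the lipase that docks on vessel walls, at 1.12, 1.21 and 1.03 TPM against 22.5 and 23 TPM (3.49, SE 0.14). Enpep, an aminopeptidase that processes angiotensin, was at 24.6, 23.9 and 17.9 TPM against 237 and 240 TPM (3.39, SE 0.28). Cdh5 and Lpl lie on chromosome 8. Edn1 passed the filter through XEN cells alone, which set its direction. No list of endothelial genes was tested, so these are single genes.

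Other coding genes were lower in XEN cells. Gjb5, a gap junction gene, was at 49.2, 43.9 and 124 TPM against 5.43 and 4.18 TPM (log2 difference -3.50, SE 0.27), with its highest 168 h value in replicate 3. Elf3, an epithelial ETS factor, was at 97.8, 107 and 132 TPM against 3.30 and 3.18 TPM (-4.73, SE 0.13), after a mean of 252 TPM at 96 h. The thrombin receptor gene F2r and its relative F2rl1 were both lower, F2r at 170, 189 and 183 TPM against 14.5 and 12.8 TPM (-3.64, SE 0.20) and F2rl1 at 48.9, 53.3 and 37.1 TPM against 1.88 and 1.81 TPM (-4.04, SE 0.21). The carbonic anhydrases Car2 (-3.96) and Car4 (-4.24) were lower as well. The groups were apart for all of these genes.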
